A study of Mus musculus with 20 samples.

Results

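The genes of mitosis were followed here through ageing of the mouse ovary, as a set of 36 genes taken from 23457 genes in the count tables. They were chosen by name, as known components of the mitotic machinery, and all 36 were in the tables of all 20 libraries, 3 of 720 values being 0, and passed the filter on low counts. Whole ovaries came from 20 females of the Ames dwarf strain, 5 mice in each of 4 groups, and their RNA was sequenced. Normal mice carry 1 copy of the df allele (N/df) and dwarf mice carry 2 (df/df), and both were taken at ages of 6 and 22 months. Because the normal mice are heterozygous, no group was free of the df allele. Dwarf mice lack growth hormone, prolactin and thyrotropin because of a defect of the pituitary, so the genotype is a change of the whole animal and not one made in the ovary. The design asks how reproductive ageing differs between these long-lived mice and normal mice of the same stock, and 4 pairwise comparisons (age in each genotype, genotype at each age) and the difference of the age changes follow from it.

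In mitosis, the kinase Cdk1 with its cyclins drives the cell into division, Plk1 and the Aurora kinases shape the spindle, and the kinetochore ties each chromosome to it. The spindle checkpoint then holds back the anaphase-promoting complex until all chromosomes are attached, after which cyclins and securin are destroyed, the chromatids part and the cell is cleaved. In the ovary, granulosa cells of growing follicles are the cells best known for dividing, while the oocyte itself is in meiosis and stores transcripts of several of the same genes. In RNA from a whole ovary, fewer dividing cells and less RNA per cell cannot be told apart.

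The transcripts of many such genes peak together late in the cell cycle, and the promoters of the group are known for a pair of short motifs, the cell cycle genes homology region (CHR), which the DREAM and MuvB complexes bind, and the CCAAT box, which NF-Y binds. RefSeq promoter windows of GRCm38.p6, each with 250 bases before and 50 after a transcript start, were matched by symbol for 32 of the 36 genes (34 windows, since Ect2 and Prc1 have 2 starts); Aurkb, Ccna2, Kif20a and Tpx2 were not matched. The CHR was searched as TTTGAA and the CCAAT box as CCAAT, each on both strands, and 1 pair of matches shared bases. The CHR letters were in 28 of the 34 windows (82.4%), against 17.9% of all 32851 windows of this length and 12.2% of the windows of tested genes. The CCAAT letters were also in 28 (82.4%), against 37.4% of all windows. Both were in 25 (73.5%), against 6.95% of all windows. Of 71 other mitosis genes on a list of their own, 53 were matched (59 windows), of 16 genes of DNA replication licensing 14 (18 windows) and of 16 genes of S phase DNA synthesis 12 (15 windows). The CHR share in these windows was 57.6%, 5.56% and 13.3%, and the CCAAT share 67.8%, 66.7% and 40%, in the same order. So the CCAAT share was also above that of all windows in the licensing genes, where the CHR share was not. A match is a description of letters and not a site at which binding was measured.

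Counted once where the windows of 1 gene share it, 25 of 32 CHR matches (78.1%) lay within 60 bases of the transcript start, against 28.3% of CHR matches in all windows, and 14 (43.8%) lay upstream of it, against 88.7%. Of 62 CCAAT matches, 60 (96.8%) lay upstream, against 89.7% in all windows, most of whose bases are upstream, and 29 (46.8%) lay within 60 bases, against 33.8%. The 120 bases just before the start are given below for 8 genes that the results return to, 5′ to 3′ on the gene's strand, with CHR and CCAAT matches of either strand in capitals. Cdk1, Cdc20, Ube2c, Kif11 and Top2a show both motifs, Mki67 shows CHR letters alone in this stretch, Ccnb1 CCAAT letters alone, and Birc5 neither.
Cdk1: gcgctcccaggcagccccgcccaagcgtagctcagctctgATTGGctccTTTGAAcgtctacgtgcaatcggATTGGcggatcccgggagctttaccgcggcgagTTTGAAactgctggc
Cdc20: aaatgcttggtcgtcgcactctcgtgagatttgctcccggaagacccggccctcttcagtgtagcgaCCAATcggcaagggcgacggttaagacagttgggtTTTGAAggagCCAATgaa
Ube2c: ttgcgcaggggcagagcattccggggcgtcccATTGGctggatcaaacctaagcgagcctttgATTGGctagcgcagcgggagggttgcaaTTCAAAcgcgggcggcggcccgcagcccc
Kif11: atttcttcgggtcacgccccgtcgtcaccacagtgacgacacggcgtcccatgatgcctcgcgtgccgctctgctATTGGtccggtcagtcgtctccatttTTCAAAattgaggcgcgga
Top2a: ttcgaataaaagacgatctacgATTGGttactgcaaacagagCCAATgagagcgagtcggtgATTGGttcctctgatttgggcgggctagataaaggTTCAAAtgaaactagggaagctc
Mki67: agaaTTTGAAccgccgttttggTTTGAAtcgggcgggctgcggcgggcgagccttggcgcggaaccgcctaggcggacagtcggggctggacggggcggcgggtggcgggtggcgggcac
Ccnb1: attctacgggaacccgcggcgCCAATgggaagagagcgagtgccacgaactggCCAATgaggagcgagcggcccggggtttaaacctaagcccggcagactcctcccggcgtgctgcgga
Birc5: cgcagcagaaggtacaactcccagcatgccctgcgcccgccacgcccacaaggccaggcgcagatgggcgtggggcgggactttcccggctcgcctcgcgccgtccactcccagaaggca
These stretches are at chr10:69352913-69353032 (minus strand), chr4:118437344-118437463 (minus), chr2:164769809-164769928 (plus), chr19:37376262-37376381 (plus), chr11:99024190-99024309 (minus), chr7:135716380-135716499 (minus), chr13:100786487-100786606 (minus) and chr11:117849117-117849236 (plus) in GRCm38.p6. Windows of Birc5, Bub1, Ccnb1, Cenpe, Nuf2 and Nusap1 held no TTTGAA on either strand, which says only that these letters are not in this window.

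**Figure D1:**
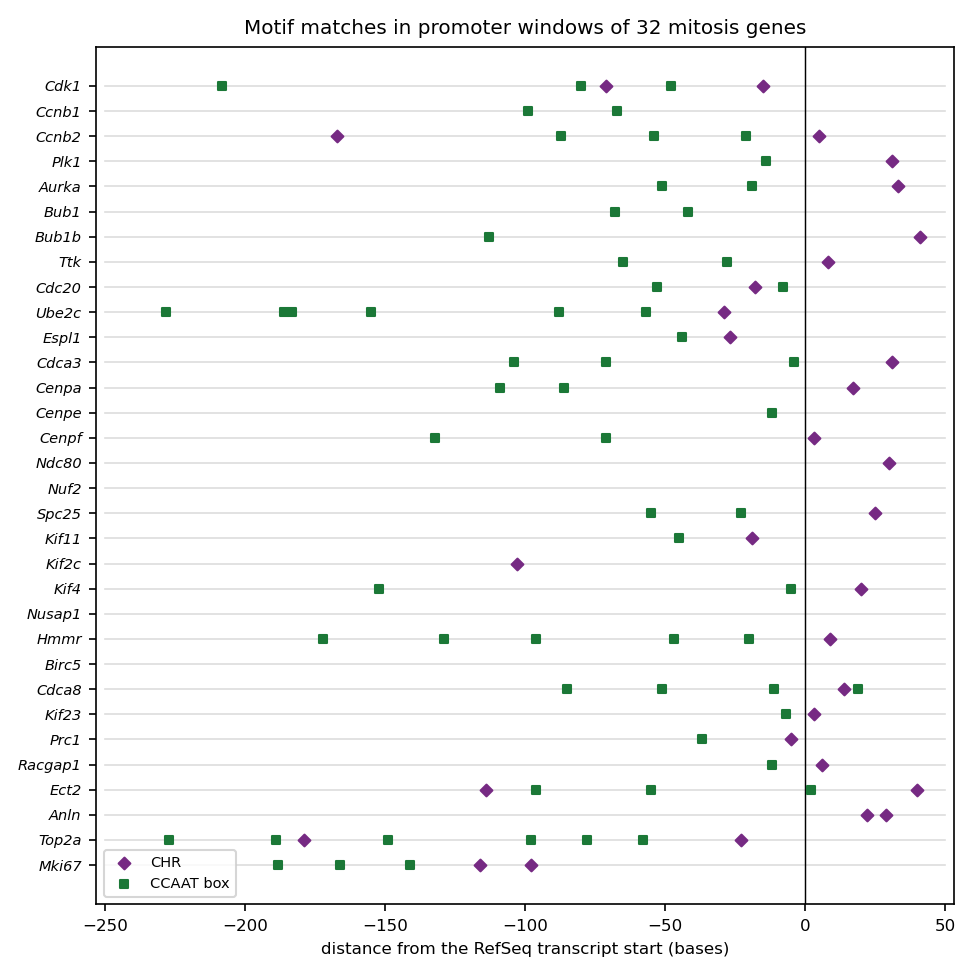
Positions of CHR (diamonds) and CCAAT box (squares) matches in the promoter window of each of 32 mitosis genes, as the distance in bases of a match's first base from the RefSeq transcript start; of genes with 2 windows, 1 is drawn. Nearly all squares lie upstream of the start, as most of the window does, and most diamonds lie close to it, with 25 of 32 CHR matches of all 34 windows within 60 bases when shared matches count once.

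Library totals over genes ran from 1365640 counts (normal 6-month replicate 3) to 36068284, and the 36 genes together took 827 to 41939 of them. Levels are given as CPM, the usual scaling of counts by the library's total, here the total over genes. Libraries that stood apart touch these genes directly. Normal 6-month replicate 2 had 159 CPM summed over the 36 genes, against 606 to 1219.6 CPM in the other 4 libraries of its group. It held the lowest value of its group for 32 of the 36, and for all 36 it lay below the highest old normal library. The same library had a summed 6717 CPM of 9 oviduct markers (31.8 to 201 CPM in the other 4), 284 CPM of 12 granulosa markers (2766 to 6117), 5.68 CPM of 13 oocyte markers (271 to 514) and 287 CPM of 10 luteal markers (12492 to 15239). Normal 22-month replicate 3 had 513 CPM over the 36 genes, against 220.2 to 280.0 CPM in the other 4, and was highest of its group for 33 of the 36. It also carried 1284 CPM of 9 B and plasma cell markers (57.3 to 185 in the other 4) and 169 CPM of 9 T and NK cell markers (15.5 to 76.4). Dwarf 6-month replicate 2 differed from its group in a milder way. It had 735 CPM over the 36 genes, against 864 to 1252 CPM in the other 4. Its oviduct markers summed to 1698 CPM (34.5 to 831) and its granulosa markers to 3039 CPM (3928 to 4940). Granulosa markers were found in all 20 libraries, from 284 to 6117 CPM, with the lowest sum in normal 6-month replicate 2. Their presence alone does not check the tissue label, since no level was set below which a library would fail. Of the oocyte markers, Oog1 was at 0 in every library.

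**Figure D2:**
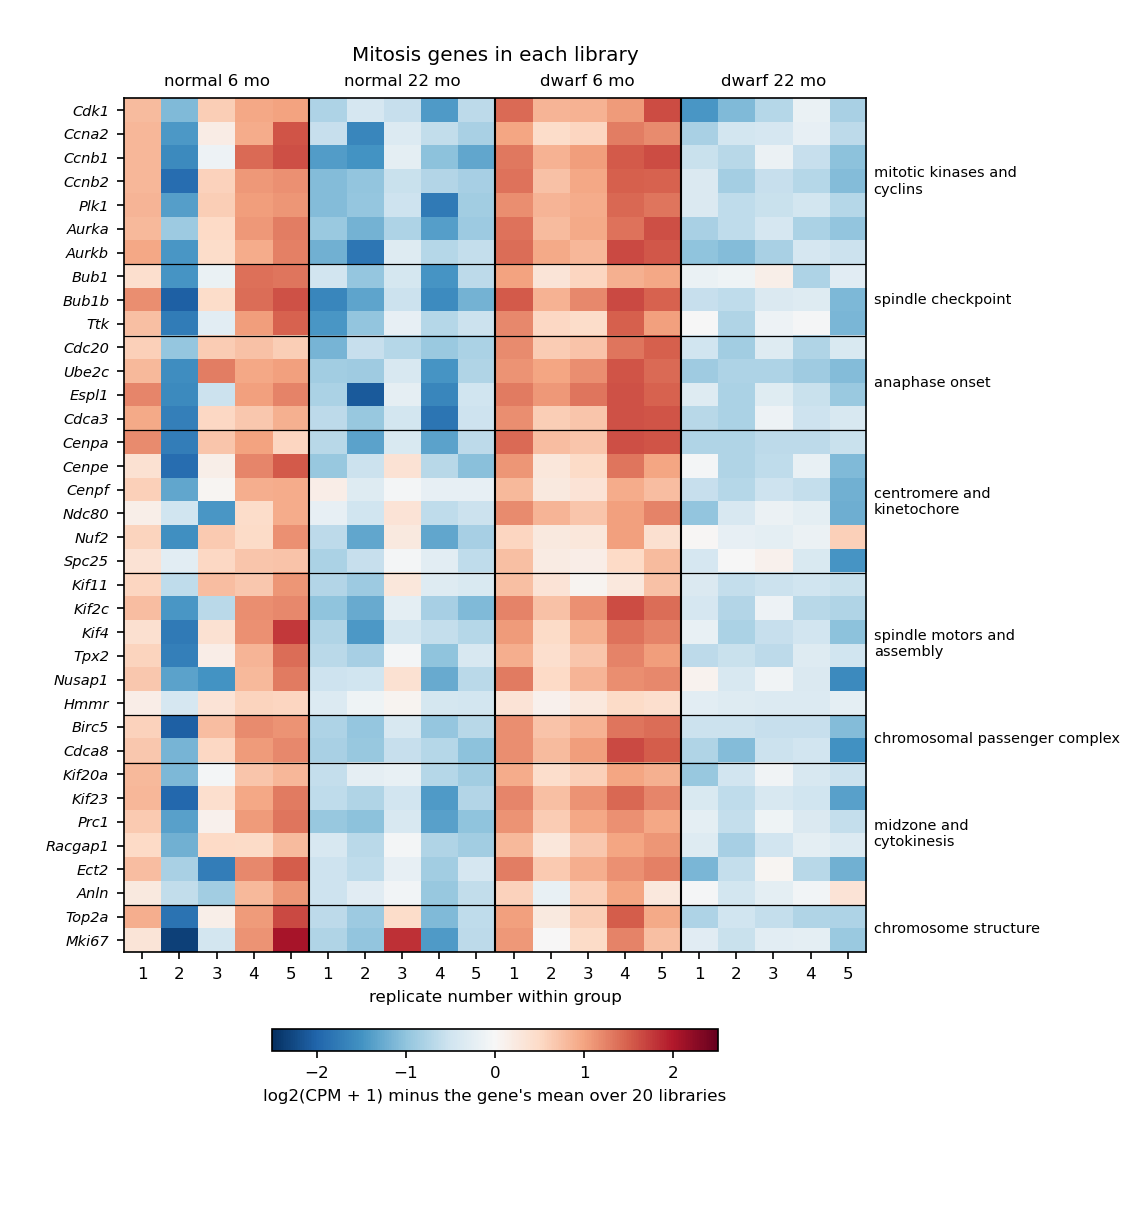
Each row is a mitosis gene, ordered by role, and each column 1 of 20 libraries; colour is log2(CPM + 1) minus the gene's mean over the libraries. Columns at 6 months are red and at 22 months blue in most rows, except normal 6-month replicate 2, which is blue, and normal 22-month replicate 3, which is paler than its group.

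With age, the mitosis genes were lower in the ovaries of both genotypes. In normal mice all 36 had a log2 fold change below 0, from -2.28 (Bub1) to -0.57 (Mki67), with a median of -1.49 (2.82-fold lower at the median), while the median over all 16099 tested genes was -0.02. In dwarf mice all 36 were again below 0, from -2.35 (Ndc80) to -0.69 (Nuf2), with a median of -1.83 (3.55-fold lower) against 0.00 over all tested genes. Fold changes come from edgeR's quasi-likelihood fit over all 20 libraries, the error after ± is an SE worked out from the test's F statistic (the size of the log2 value divided by the root of F), and a gene is said to have risen or fallen where the Benjamini-Hochberg adjusted p over all tested genes was under 0.05.

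In normal mice 20 of the 36 genes fell and 0 rose, where 4.14% of all tested genes fell and 2.6% rose. An unadjusted p under 0.05 was found for 32 of the 36 and, in either direction, for 3748 of the 16099 tested genes. DESeq2 called 28 lower (6.39% of all tested genes) and limma voom 35 (10.9%). The count depended on single libraries. It was 33 without normal 6-month replicate 2 (10% of all tested genes fell), 12 without replicate 4 (2.6%) or replicate 5 (4.61%) of that group, 13 without normal 22-month replicate 1 (2.89%) and 11 without replicate 2 (2.54%), and 11 of the 20 calls were made in each of the 10 fits that left out 1 library. When the fit held only the 10 normal libraries the count was 0, as it was over all genes tested in that fit (0%), with the median log2 value of the 36 at -1.46. It was 5 without the 3 libraries whose titles carry the numbers 21 to 23 (dwarf 22-month replicate 5 and, among normal mice, 6-month replicate 5 and 22-month replicate 3), where 0.974% of all tested genes fell and the median of the 36 was -1.43. It was 36 without normal 22-month replicate 3 and normal 6-month replicates 2 and 3, the shallow library among them, a fit in which 12.9% of all tested genes fell. These 3 libraries were chosen after the data were seen. For 0 of the 36 genes were the 6-month and 22-month values of normal mice free of overlap, where 1.01% of all tested genes were lower without overlap; leaving out 6-month replicate 2 made that 25, where it was 5.22% of all tested genes.

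In dwarf mice 30 of the 36 fell and 0 rose, where 8.27% of all tested genes fell and 2.92% rose. An unadjusted p under 0.05 was found for 33 of the 36 and, in either direction, for 4528 of the 16099 tested genes. The 5 old values lay below all 5 young values for 34 of the 36, the exceptions being Anln and Nuf2, where 12.2% of all tested genes were lower without overlap. Leaving out 1 library gave 25 to 30 calls, in fits where 3.602 to 7.410% of all tested genes fell, and 24 of the 30 calls were made in each of the 10 fits. DESeq2 called 32 (10.3% of all tested genes) and limma voom 36 (24.5%), and 35 were called without the 3 libraries that stand apart in the normal groups (15.4% of all tested genes). The 20 genes that fell in normal mice all fell in dwarf mice too. Another 10 passed the threshold in dwarf mice alone (Cenpe, Cenpf, Ect2, Hmmr, Kif20a, Ndc80, Nusap1, Racgap1, Top2a and Tpx2), and 6 in neither (Anln, Bub1, Mki67, Nuf2, Spc25 and Ttk). Of these 6, Bub1, Mki67, Spc25 and Ttk fell in dwarf mice when the fit held only the dwarf libraries. That fit called 34 of the 36 lower, where 18.2% of all genes tested in it fell. That a gene passed in 1 genotype alone does not show that the genotypes differ, which is tested further on.

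**Figure D3:**
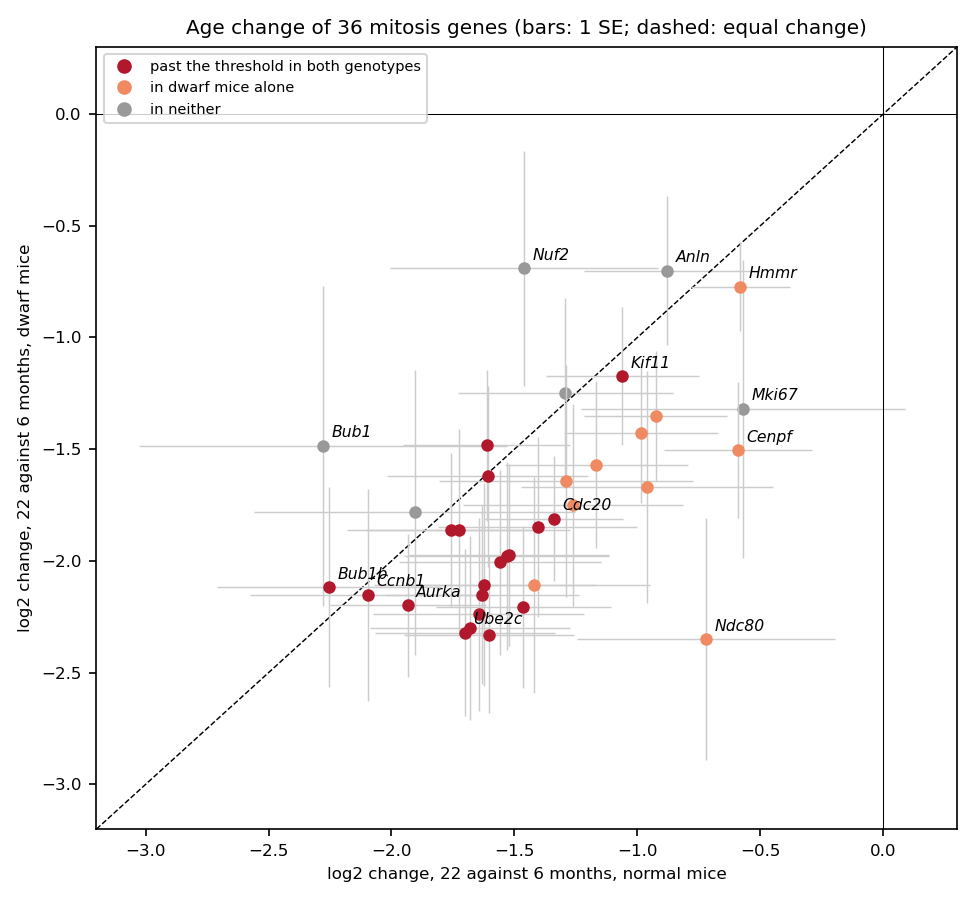
Log2 fold change from 6 to 22 months of each of 36 mitosis genes in normal (horizontal) and dwarf mice (vertical), with bars of 1 SE; the dashed line marks equal change and colour the genotypes in which the adjusted p was under 0.05. All points lie below 0 on both axes, 20 dark red in both genotypes, 10 orange in dwarf mice alone and 6 grey in neither.

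The kinases and cyclins that start and carry mitosis fell in full, 7 of 7 in each genotype, with medians of -1.68 in normal and -2.15 in dwarf mice. Cdk1, the kinase that triggers entry into mitosis, was at 25.0, 6.04, 22.0, 28.5 and 29.4 CPM in normal 6-month replicates 1 to 5 and 7.85, 10.3, 9.08, 4.63 and 8.56 CPM in normal 22-month replicates 1 to 5. In dwarf mice it was at 39.0, 26.0, 26.7, 30.7 and 45.6 CPM at 6 months and 4.53, 6.03, 8.18, 12.4 and 7.59 CPM at 22 months. In normal mice only 6-month replicate 2 lay within the range of the old libraries, and in dwarf mice the ages did not overlap. Cdk1 fell in both (normal log2 -1.46 ± 0.356, edgeR adjusted p = 0.0207; dwarf log2 -2.20 ± 0.362, edgeR adjusted p = 0.00148). Its cyclin partner Ccnb1, whose promoter stretch above shows 2 CCAAT matches and no CHR match, had 15.3, 2.04, 7.32, 23.3 and 26.9 CPM in normal 6-month replicates 1 to 5 and 2.47, 2.23, 6.72, 3.47 and 2.69 CPM in normal 22-month replicates 1 to 5. The dwarf values were 21.9, 15.7, 17.8, 25.4 and 27.2 CPM at 6 months and 5.19, 4.64, 7.21, 5.11 and 3.52 CPM at 22 months. Young normal replicate 2 lay below every old normal library, replicate 3 just above the highest of them, and replicate 3 of the old normal group was the highest of its 5. The fall of Ccnb1 was log2 -2.10 ± 0.479, edgeR adjusted p = 0.0154 in normal and log2 -2.15 ± 0.476, edgeR adjusted p = 0.00857 in dwarf mice.

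Aurka, the Aurora kinase of centrosome and spindle pole, had the smallest p of the 36 genes in both genotypes. It stood at 21.1, 5.75, 16.8, 25.8 and 29.9 CPM in normal 6-month replicates 1 to 5 and 5.67, 4.55, 6.37, 3.86 and 5.73 CPM in normal 22-month replicates 1 to 5. Its dwarf values were 31.6, 20.8, 23.6, 31.5 and 37.8 CPM at 6 months and 6.26, 7.11, 8.40, 6.36 and 5.37 CPM at 22 months. Replicate 2 of the young normal group again sat among the old libraries, and all other young libraries were at least 16.8 CPM. It fell by 1.93 on the log2 scale in normal mice (SE 0.319, edgeR adjusted p = 0.00745) and by 2.20 in dwarf mice (SE 0.319, edgeR adjusted p = 0.000758). Plk1, a kinase needed for spindle assembly and mitotic exit, was measured at 33.6, 6.41, 28.6, 38.5 and 40.4 CPM in normal 6-month replicates 1 to 5 and 8.14, 8.93, 12.4, 4.63 and 9.53 CPM in normal 22-month replicates 1 to 5. Dwarf ovaries had 42.2, 34.0, 35.9, 50.8 and 47.5 CPM at 6 months and 14.0, 11.4, 12.2, 13.1 and 10.7 CPM at 22 months. Without young normal replicate 2, no young library of either genotype came below 28.6 CPM and no old one above 14.0 CPM. Plk1 fell with log2 -1.76 ± 0.347, edgeR adjusted p = 0.00977 in normal and log2 -1.86 ± 0.345, edgeR adjusted p = 0.00344 in dwarf mice. Ccna2, Ccnb2 and Aurkb, the last being the kinase of the passenger complex, fell by 1.61, 1.63 and 1.68 in normal and by 1.62, 2.15 and 2.30 in dwarf mice on the log2 scale. Exons of Ccna2 share 13.4% of their bases with Exosc9, and whether the counting used strand is not given in the sources used here.

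**Figure D4:**
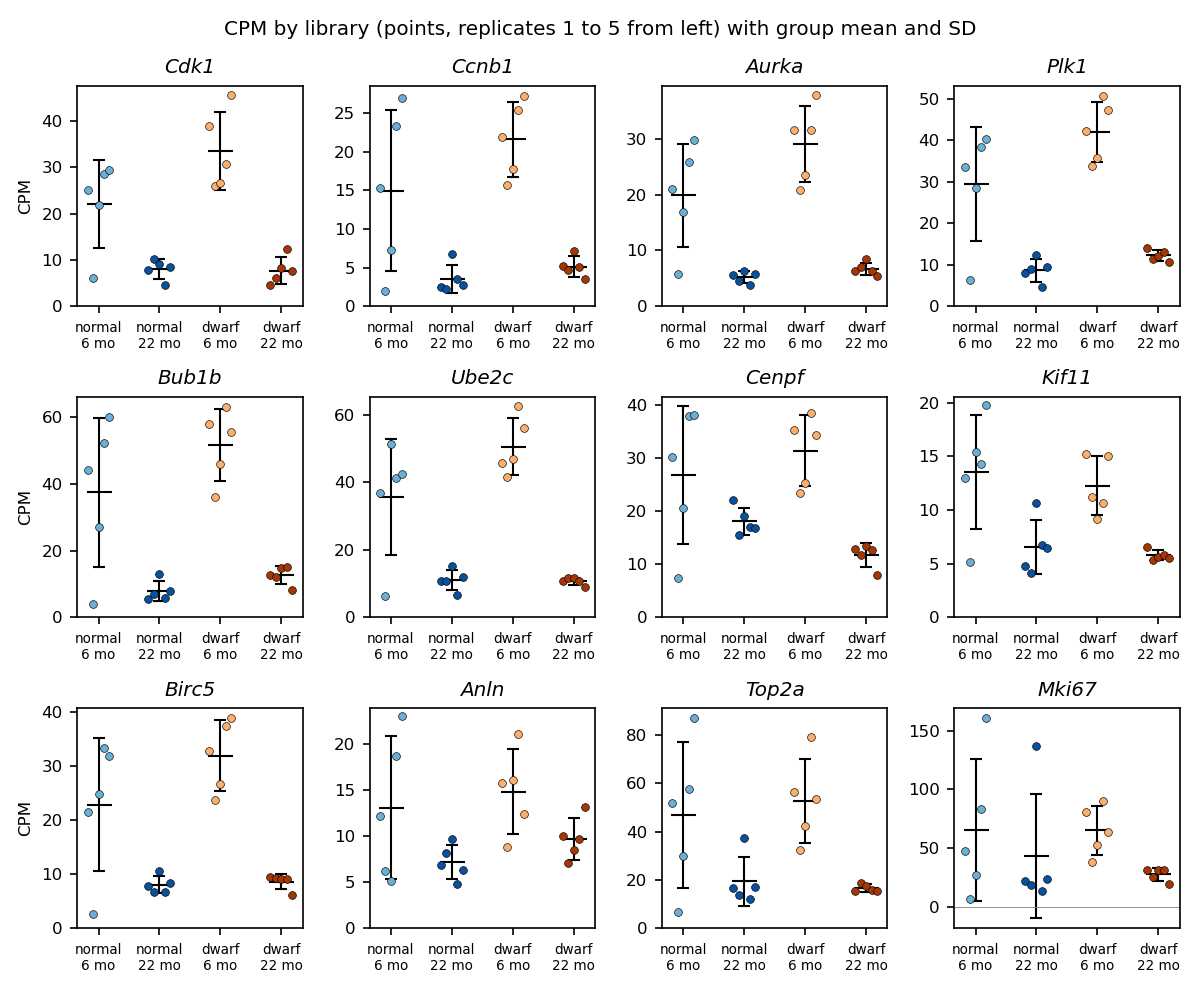
CPM of 12 mitosis genes in each library (points, replicates 1 to 5 from left to right) with the mean and SD of each group of 5. In most panels both 22-month groups lie in a narrow low band and the 6-month groups above it, apart from normal 6-month replicate 2; in the Mki67 panel normal 22-month replicate 3 stands at 137 CPM.

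Of the 3 spindle checkpoint genes, Bub1b fell in both genotypes and Bub1 and Ttk in neither. Bub1b, the checkpoint protein BubR1 that restrains Cdc20, was at 44.2, 3.93, 27.1, 52.1 and 60.02 CPM in normal 6-month replicates 1 to 5 and 5.53, 7.13, 12.9, 5.78 and 7.94 CPM in normal 22-month replicates 1 to 5. In dwarf libraries it was at 57.9, 35.97, 45.9, 63.1 and 55.5 CPM at 6 months and 12.7, 12.2, 14.7, 15.1 and 8.33 CPM at 22 months. Young normal replicate 2 was the lowest of all 20 libraries, and the ages were otherwise apart. The fold changes were log2 -2.25 ± 0.454, edgeR adjusted p = 0.0103 in normal and log2 -2.12 ± 0.448, edgeR adjusted p = 0.00686 in dwarf mice. Bub1, a kinase of the same checkpoint, had the most negative log2 value of all 36 genes in normal mice, but at levels of 0 to 6.24 CPM and with a wide error (log2 -2.28 ± 0.748, edgeR adjusted p = 0.0732). It was listed at 0 in normal 6-month replicate 2 and normal 22-month replicate 4, which allows up to 0.218 and 0.578 CPM by a limit of 3 counts. Ttk, the kinase Mps1 that starts the checkpoint signal, was at 0.146 to 9.84 CPM (log2 -1.91 ± 0.653, edgeR adjusted p = 0.0855 in normal and log2 -1.78 ± 0.638, edgeR adjusted p = 0.0767 in dwarf mice).

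The 4 genes grouped under anaphase onset fell in both genotypes, with medians of -1.51 in normal and -1.98 in dwarf mice. Cdca3, which acts at mitotic entry, is counted among them. Ube2c, the enzyme that hands ubiquitin to the targets of the anaphase-promoting complex, was at 36.7, 6.33, 51.3, 41.2 and 42.5 CPM in normal 6-month replicates 1 to 5 and 10.8, 10.6, 15.3, 6.75 and 11.8 CPM in normal 22-month replicates 1 to 5. Dwarf mice had 45.8, 41.6, 47.1, 62.5 and 56.0 CPM at 6 months and 10.7, 11.6, 11.6, 10.7 and 9.08 CPM at 22 months. The old dwarf values were within a span of 9.08 to 11.6 CPM, and every young library but normal replicate 2 was at 36.7 CPM or more. Ube2c fell with log2 -1.70 ± 0.368, edgeR adjusted p = 0.0129 in normal and log2 -2.32 ± 0.373, edgeR adjusted p = 0.0014 in dwarf mice. Cdc20, a co-activator of that complex with both motifs close to the start, was at 35.95, 11.5, 37.3, 39.99 and 36.7 CPM in normal 6-month replicates 1 to 5 and 10.0, 15.5, 14.0, 12.0 and 13.3 CPM in normal 22-month replicates 1 to 5. The dwarf values were 55.00, 37.1, 39.2, 61.0 and 68.4 CPM at 6 months and 16.5, 12.5, 18.7, 13.6 and 17.8 CPM at 22 months. Old libraries of both genotypes spanned 10.0 to 18.7 CPM, a range that held normal 6-month replicate 2 but no other young library. The fall of Cdc20 was log2 -1.34 ± 0.281, edgeR adjusted p = 0.0114 in normal and log2 -1.81 ± 0.281, edgeR adjusted p = 0.00115 in dwarf mice. Espl1, the separase that cuts cohesin, and Cdca3, a trigger of Wee1 turnover at mitotic entry, fell by 1.62 and 1.41 in normal and by 2.11 and 1.85 in dwarf mice on the log2 scale. The normal call of Cdca3 held in 1 and that of Espl1 in 4 of 10 fits with 1 library left out.

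At the centromere and kinetochore, 1 of 6 genes fell in normal mice (Cenpa, the histone that marks centromeres, log2 -1.64 ± 0.429, edgeR adjusted p = 0.0278) and 4 of 6 in dwarf mice (Cenpa, Cenpe, Cenpf and Ndc80). Cenpf, a large protein of the outer kinetochore, was at 30.2, 7.43, 20.5, 37.9 and 38.2 CPM in normal 6-month replicates 1 to 5 and 22.1, 15.5, 19.0, 17.0 and 16.9 CPM in normal 22-month replicates 1 to 5. In dwarf mice the values were 35.2, 23.4, 25.2, 38.5 and 34.4 CPM at 6 months and 12.9, 11.7, 13.4, 12.6 and 7.96 CPM at 22 months. The old normal libraries lay between young normal replicate 2 and young normal replicates 1, 4 and 5, while the old dwarf libraries lay below all young dwarf and all old normal libraries. Cenpf fell in dwarf mice (log2 -1.50 ± 0.303, edgeR adjusted p = 0.00552) and did not pass in normal mice (log2 -0.59 ± 0.299, edgeR adjusted p = 0.242). Ndc80, which joins the kinetochore to microtubules, was at 2.05, 0.947, 0, 2.81 and 4.25 CPM in normal 6-month replicates 1 to 5 and 1.38, 0.945, 2.48, 0.771 and 0.898 CPM in normal 22-month replicates 1 to 5. Dwarf ovaries gave 5.24, 3.98, 3.43, 4.64 and 5.52 CPM at 6 months and 0.400, 1.09, 1.49, 1.34 and 0.185 CPM at 22 months. The ages overlapped in normal and not in dwarf mice. These are low levels, and the 0 in normal 6-month replicate 3 allows up to 2.20 CPM at that library's depth, by the same limit. Ndc80 fell in dwarf mice (log2 -2.35 ± 0.541, edgeR adjusted p = 0.0105), and its normal value was log2 -0.72 ± 0.524, edgeR adjusted p = 0.428. Nuf2 and Spc25, the partners of Ndc80 in the same complex, fell in neither genotype (-1.46 and -1.29 in normal, -0.69 and -1.25 in dwarf mice). Cenpe, a motor that carries chromosomes to the spindle equator, fell in dwarf mice (log2 -1.64 ± 0.519, edgeR adjusted p = 0.0473), a call made in 1 of 10 fits with a library left out.

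Among 6 genes of spindle motors and assembly, Kif11, Kif2c and Kif4 fell in normal mice and all 6 in dwarf mice. Kif11, the motor that pushes the spindle poles apart, was at 13.0, 5.17, 15.4, 14.3 and 19.8 CPM in normal 6-month replicates 1 to 5 and 4.79, 4.12, 10.7, 6.75 and 6.42 CPM in normal 22-month replicates 1 to 5. The dwarf libraries had 15.2, 11.2, 9.16, 10.6 and 15.1 CPM at 6 months and 6.53, 5.34, 5.65, 5.82 and 5.56 CPM at 22 months. Old normal replicate 3 was the highest of its group and lay above young normal replicate 2, while the dwarf ages did not overlap. Its age change was among the smaller ones of the genes that fell, with log2 -1.06 ± 0.312, edgeR adjusted p = 0.046 in normal and log2 -1.17 ± 0.310, edgeR adjusted p = 0.0212 in dwarf mice, and the normal call was made in 2 and the dwarf call in 6 of 10 fits with 1 library left out. Kif2c, a microtubule depolymerase, and Kif4, a chromosome motor, fell by 1.56 and 1.73 in normal and by 2.01 and 1.86 in dwarf mice; each normal call was made in 5 of 10 such fits. Tpx2, which seeds spindle microtubules and activates Aurora A, Nusap1, a microtubule bundler, and Hmmr, a spindle protein, fell in dwarf mice with log2 values of -1.57, -1.67 and -0.77; their normal values were -1.17, -0.96 and -0.58. Nusap1 was called in 1 of 10 such fits in dwarf mice, and 7.03% of its exon bases are shared with Oip5.

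The chromosomal passenger complex has 3 of its genes among the 36, Aurkb, given above, Birc5 and Cdca8, and all 3 fell in each genotype. Birc5, the survivin subunit, was at 21.6, 2.69, 24.9, 33.5 and 31.9 CPM in normal 6-month replicates 1 to 5 and 7.89, 6.70, 10.6, 6.75 and 8.43 CPM in normal 22-month replicates 1 to 5. In dwarf mice the levels were 32.9, 23.8, 26.7, 37.5 and 39.0 CPM at 6 months and 9.46, 9.39, 9.15, 9.14 and 6.11 CPM at 22 months. Old dwarf libraries were nearly level apart from replicate 5, and the young normal group ran from 2.69 CPM in replicate 2 to 33.5 CPM. Birc5, whose stretch above shows neither motif, fell with log2 -1.52 ± 0.405, edgeR adjusted p = 0.0302 in normal mice and log2 -1.97 ± 0.407, edgeR adjusted p = 0.00602 in dwarf mice. The normal call was made in 3 of 10 fits with 1 library left out. Cdca8, the borealin subunit, fell by 1.60 in normal and by 2.33 in dwarf mice.

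Of 6 genes of the spindle midzone and cytokinesis, Kif23 and Prc1 fell in normal mice and 5 fell in dwarf mice, Anln being the exception. Anln, the anillin that scaffolds the cleavage furrow, was at 12.2, 6.26, 5.13, 18.7 and 23.0 CPM in normal 6-month replicates 1 to 5 and 6.81, 8.16, 9.73, 4.82 and 6.35 CPM in normal 22-month replicates 1 to 5. Its dwarf values were 15.8, 8.79, 16.0, 21.1 and 12.4 CPM at 6 months and 9.99, 7.11, 8.48, 9.68 and 13.1 CPM at 22 months. Young normal replicates 2 and 3 lay among the old libraries, and in dwarf mice the highest old value lay above 2 of the young ones. Neither age change passed (log2 -0.88 ± 0.338, edgeR adjusted p = 0.123 in normal and log2 -0.70 ± 0.335, edgeR adjusted p = 0.177 in dwarf mice). Prc1, which bundles midzone microtubules, fell by 1.61 and 1.48 and Kif23, a motor of the centralspindlin complex, by 1.53 and 1.98 in normal and dwarf mice. The normal call of Kif23 was made in 1 of 10 fits with 1 library left out. Racgap1, the partner of Kif23, Ect2, the exchange factor that switches on RhoA for cleavage, and Kif20a, a midzone motor, had log2 values of -0.92, -1.42 and -0.98 in normal mice, none past the threshold, and fell in dwarf mice (-1.35, -2.11 and -1.43). Of Kif20a's exon bases, 33.3% are shared with Brd8 and Cdc23, so its counts are uncertain.

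The 2 genes of chromosome structure parted in 1 library. Top2a, the topoisomerase that untangles chromosomes, was at 51.7, 6.77, 30.0, 57.8 and 87.0 CPM in normal 6-month replicates 1 to 5 and 16.8, 13.9, 37.4, 12.1 and 17.0 CPM in normal 22-month replicates 1 to 5. The dwarf levels were 56.3, 32.5, 42.1, 79.0 and 53.3 CPM at 6 months and 15.5, 18.9, 17.5, 15.8 and 15.4 CPM at 22 months. Young normal replicate 2 was the lowest of all 20 libraries, old normal replicate 3 lay above young normal replicate 3, and the dwarf ages did not overlap. It fell in dwarf mice (log2 -1.75 ± 0.451, edgeR adjusted p = 0.0188), while its normal change did not pass (log2 -1.26 ± 0.446, edgeR adjusted p = 0.0954). Mki67, the Ki-67 coat protein of mitotic chromosomes that is widely used to stain dividing cells, was at 47.5, 6.70, 27.1, 83.2 and 161 CPM in normal 6-month replicates 1 to 5 and 22.0, 18.5, 137, 13.5 and 23.8 CPM in normal 22-month replicates 1 to 5. In dwarf mice it was at 81.1, 38.1, 52.9, 90.1 and 63.9 CPM at 6 months and 31.0, 25.5, 31.3, 31.7 and 19.3 CPM at 22 months. The dwarf ages did not overlap, and the normal ages overlapped through young replicate 2 and through old replicate 3, which had the second highest value of all 20 libraries. Mki67 passed the threshold in neither genotype (log2 -0.57 ± 0.658, edgeR adjusted p = 0.634 in normal and log2 -1.32 ± 0.667, edgeR adjusted p = 0.203 in dwarf mice). The dwarf test uses a spread shared with the normal groups. In a fit of only the dwarf libraries Mki67 fell (log2 -1.27, edgeR adjusted p = 0.0025), where 18.2% of tested genes fell. Without normal 22-month replicate 3 and normal 6-month replicates 2 and 3, a choice made after the data were seen, Mki67 fell in both, with log2 values of -2.25 and -1.28. Those libraries held the highest old and the 2 lowest young values of normal mice, so leaving them out by itself deepens the normal fall. No dwarf library was left out of that fit. In normal 22-month replicate 3 Mki67 took 26.7% of the CPM of the 36 genes, against 6.13 to 8.49% in the other 4 libraries of the group, and its ratio to Top2a was 3.67, against 1.11 to 1.40. Over the other 19 libraries that ratio ran from 0.902 to 2.01. The library is the one with 1284 CPM of B and plasma cell markers, and their part in the Mki67 level was not tested.

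Per length of exon, Ube2c had the highest mean level of the 36 genes and Cdc20 the next in each of the 4 groups. After these came Cdca3 at 6 months and Racgap1 at 22 months, when the means of Racgap1 and Cdca3 differed by less than the SD of Cdca3. Ube2c had 38.2 ± 18.5, 11.9 ± 3.27, 54.3 ± 9.12 and 11.5 ± 1.10 CPM per kb in normal 6-month, normal 22-month, dwarf 6-month and dwarf 22-month ovaries (mean ± SD, n = 5). Cdc20 followed with 18.1 ± 6.57, 7.26 ± 1.17, 29.2 ± 7.64 and 8.87 ± 1.48 CPM per kb in the same order. Bub1 was the lowest, with 0.758 ± 0.639, 0.149 ± 0.101, 0.862 ± 0.213 and 0.325 ± 0.121 CPM per kb. Bub1 and Ndc80 were the only genes of the 36 with a library at 0, 3 of 720 values.

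At 6 months no gene of the 36 passed the test between dwarf and normal ovaries. By edgeR the count was 0 of 36, where 4.57% of all tested genes passed. An unadjusted edgeR p under 0.05 was reached by 1 of the 36 and by 2969 of the 16099 tested genes. The counts of DESeq2 and limma voom were also 0, where 8.78% and 11.5% of all tested genes passed. Fitted values were higher in dwarf mice for 34 of the 36, with a median log2 difference of 0.43 against -0.04 over all tested genes, and SEs of 0.199 to 0.690. The summed level was 1019.5 ± 215 CPM in dwarf and 755 ± 402 CPM in normal ovaries (SD, n = 5). Cdc20 had the smallest p (log2 0.66 ± 0.275, edgeR adjusted p = 0.191), with the values given above: the young dwarf libraries ran from 37.1 to 68.4 CPM and the young normal ones from 11.5 to 39.99 CPM. Without normal 22-month replicate 3 and normal 6-month replicates 2 and 3 the median was 0.04, with 16 of the 36 below 0.

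At 22 months 0 of 36 genes passed between the genotypes by edgeR, where 3.81% of all tested genes did. Before adjustment 1 of the 36 and 2894 of the 16099 tested genes had an edgeR p under 0.05. DESeq2 and limma voom called 0, where they called 7.46% and 14.1% of all tested genes. The median log2 difference of the 36 was 0.06, with 21 above and 15 below 0. Cenpf had 11.7 ± 2.19 CPM in dwarf and 18.1 ± 2.56 CPM in normal ovaries (SD, n = 5), with no overlap (log2 -0.72 ± 0.300, edgeR adjusted p = 0.205), where 2.07% of all tested genes were lower without overlap. In a fit of the 10 old libraries alone Cenpf passed (log2 -0.70, edgeR adjusted p = 0.0439), where 2.34% of tested genes were lower. Normal 22-month replicate 3 was the highest of its group for 33 of the 36 genes, so leaving it out lowers the old normal levels. Without it alone 0 of the 36 passed, where 3.1% of all tested genes did. Normal 6-month libraries are in neither group compared here, and bear on the test through the fit shared by all groups. Without normal 22-month replicate 3 and normal 6-month replicates 2 and 3, a choice made after the data were seen, 5 of the 36 passed. Bub1b (log2 0.87, edgeR adjusted p = 0.0113), Ccnb1 (0.90, adjusted p = 0.0293), Nuf2 (1.38, adjusted p = 0.0144) and Prc1 (0.68, adjusted p = 0.0177) were then higher in dwarf mice, where 5.37% of tested genes were, and Cenpf (-0.67, adjusted p = 0.0301) lower, where 5.4% were. In that fit the values of Bub1b in old normal mice were the 5.53, 7.13, 5.78 and 7.94 CPM of the 4 remaining libraries, below the 8.33 to 15.1 CPM of old dwarf mice. The old normal library left out had 12.9 CPM, within that dwarf range.

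Whether the age change itself differed between the genotypes was tested by the interaction. By edgeR 0 of 36 genes passed, as did 0% of all tested genes. Before adjustment 2 of the 36 and 1127 of the 16099 tested genes had a p under 0.05. DESeq2 and limma voom also called 0 of the 36, and 17 and 9 of all tested genes. The change was more negative in dwarf mice for 29 of the 36, with a median difference of -0.44 and SEs of 0.282 to 1.01. Without normal 22-month replicate 3 and normal 6-month replicates 2 and 3 that direction turned: the change was more negative in dwarf mice for 12 of the 36, the median difference was 0.19, and 0 of the 36 passed. Ndc80 had the smallest p (log2 -1.63 ± 0.745, edgeR adjusted p = 0.69), from its change of -0.72 in normal and -2.35 in dwarf mice, and Cenpf the next (log2 -0.91 ± 0.422, edgeR adjusted p = 0.699). These errors leave room for differences in either direction; for Nuf2 the difference was log2 0.77 ± 0.751 and for Bub1 log2 0.79 ± 1.01. The age changes of normal and dwarf mice share no library, whereas each shares a group with both genotype comparisons. Their p-values are still not separate, since the estimate of the spread was made over the libraries of all groups.

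**Figure D5:**
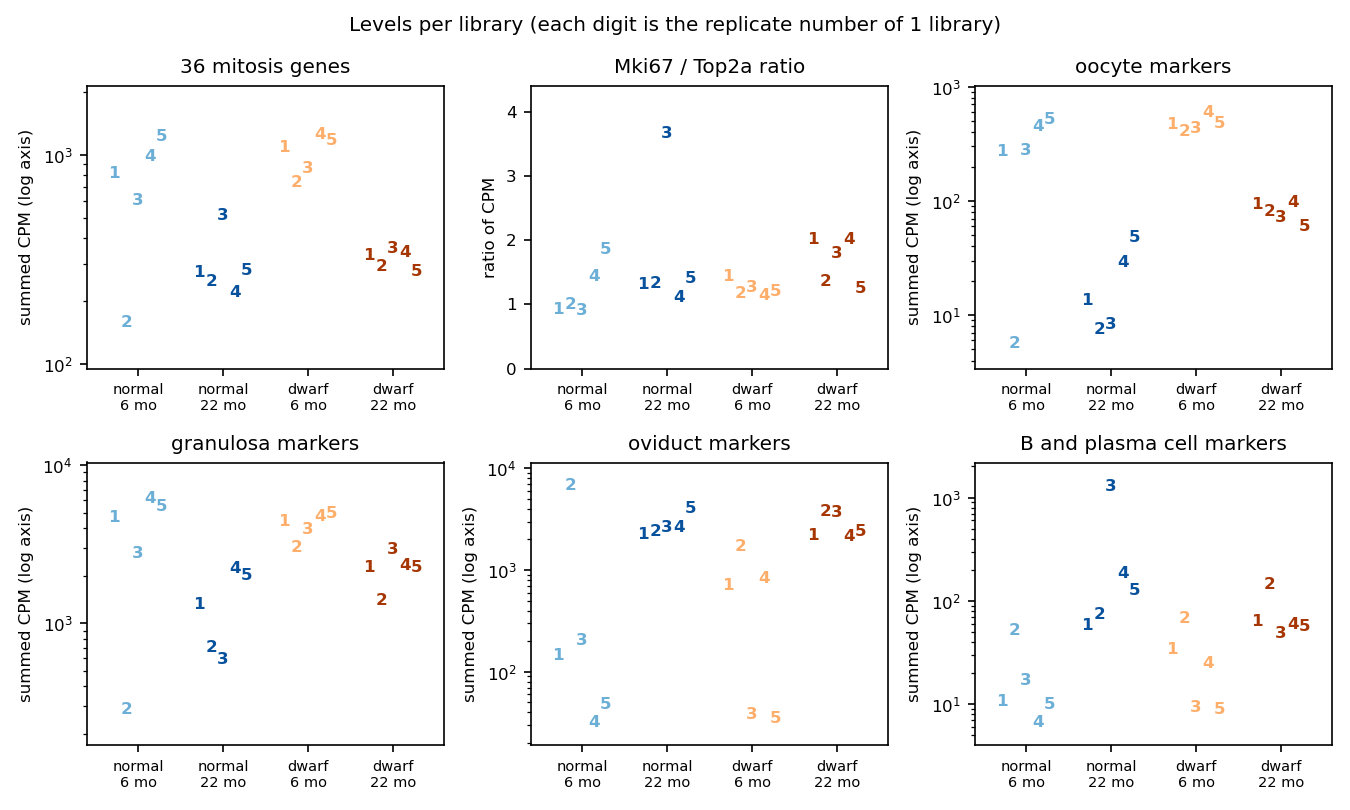
Summed CPM (log axes) of the 36 mitosis genes and of oocyte, granulosa, oviduct and B and plasma cell markers, and the ratio of Mki67 to Top2a (linear axis from 0), with each library drawn as its replicate number. Normal 6-month replicate 2 is low in mitosis, oocyte and granulosa genes and high in oviduct markers, and normal 22-month replicate 3 is high in the ratio and in B and plasma cell markers.

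Summed levels of markers of several other cell types also differed between the ages. Over all tested genes, 4.14% fell and 2.6% rose in normal mice, and 8.27% fell and 2.92% rose in dwarf mice. The summed 13 oocyte markers were at 271 to 514 CPM in normal 6-month libraries apart from replicate 2 (5.68), at 7.47 to 47.6 CPM in normal 22-month, 406 to 597 CPM in dwarf 6-month and 60.01 to 97.7 CPM in dwarf 22-month libraries. Of 12 tested, 11 fell in normal and 10 in dwarf mice, and at 22 months Dazl was at 0 in 4 and Figla in 3 of the 5 normal libraries. The 12 granulosa markers summed to 591 to 2235 CPM at 22 months in normal and 1394 to 2934 CPM in dwarf ovaries, against 2766 to 6117 CPM (284 in replicate 2) and 3039 to 4939.6 CPM at 6 months, and 2 of the 12 fell in each genotype, among them Amh. Oviduct markers were at 2254 to 4039.8 CPM in old normal and 2158 to 3731 CPM in old dwarf libraries, against 34.5 to 1698 CPM in young dwarf ones, with 0 of 9 tested past the threshold in either genotype. Without normal 22-month replicate 3 and normal 6-month replicates 2 and 3, however, all 9 oviduct markers rose and 9 of the 12 granulosa markers fell in normal mice. In that fit 16.7% of all tested genes rose and 12.9% fell in normal mice. Young replicate 2, which it leaves out, had 6717 CPM of oviduct and 284 CPM of granulosa markers. Of immune markers, 6 of 9 for B and plasma cells, 4 of 8 tested for T and NK cells and 2 of 8 for macrophages rose in normal mice and 0 in dwarf mice. The B and plasma cell markers summed to 6.69 to 51.6 CPM at 6 and 57.3 to 1284 CPM at 22 months in normal mice and to 8.90 to 66.9 and 48.5 to 145 CPM in dwarf mice. Of 6 adipocyte markers 5 rose in dwarf mice (summed 20.4 to 58.4 CPM at 6 and 75.6 to 243 CPM at 22 months) and 0 in normal mice (33.7 to 207 and 48.8 to 408 CPM). Of 5 tested surface epithelium markers, Upk1b rose in both genotypes and Lgals7 in dwarf mice. Mean sums of luteal, theca and endothelium markers went opposite ways in the genotypes, with the ages overlapping in each. From 6 to 22 months they went from 11076 to 7788, 1000 to 774 and 378 to 465 CPM in normal mice. In dwarf mice they went from 2561 to 3797, 1342 to 1485 and 426 to 379 CPM. Whether the genotypes differ in these marker changes is not shown by such counts or sums. The part of these shifts in the change of the mitosis genes was not tested.

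The rest of the cell cycle was read from lists of their own. Of 71 other mitosis genes, 70 were tested, and 27 fell in normal and 40 in dwarf mice, with 0 rising and medians of -0.98 and -1.46. For this list and those that follow, the share of all tested genes that fell was the 4.14% in normal and 8.27% in dwarf mice given above. The smallest p were those of Gtse1, a G2 and S phase protein of microtubules (-1.47), Cenpm, a centromere protein (-1.95), and Ccnf, the cyclin F (-1.49), in normal mice, and of Cks2, a Cdk1 subunit (-2.03), Gtse1 (-2.09) and Cit, the citron kinase of cytokinesis (-1.73), in dwarf mice. Of 17 APC/C subunits and regulators, 1 fell in normal mice, a share near that of all genes (Ube2s, which extends ubiquitin chains, -0.75) and 5 in dwarf mice (the smallest p for Fzr1, the co-activator of mitotic exit, -0.62, Ube2s, -0.81, and Anapc5, -0.57), with medians of -0.24 and -0.26. Ube2c and Cdc20, which serve the same complex, had -1.70 and -1.34 in normal and -2.32 and -1.81 in dwarf mice.

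Of 16 transcription factors of G2/M genes and DREAM subunits, 3 fell in each genotype. They were Mybl2, the B-Myb partner of the CHR-binding MuvB core (-1.58 in normal and -1.96 in dwarf mice), Foxm1, the forkhead factor of G2/M genes (-1.48 and -1.54), and Nfya, a subunit of the CCAAT-binding NF-Y (-0.59 and -0.54). Among 16 licensing genes, 3 fell in normal (Mcm5, -1.54, Mcm2, -0.97, and Mcm3, -0.97) and 8 in dwarf mice (the smallest p for Cdt1, -1.65, Mcm2, -1.22, and Mcm5, -1.42), with medians of -0.68 and -0.85. Of 16 S phase synthesis genes, 2 fell in normal mice (Pcna, the sliding clamp, -0.64, and Cdc45, -0.92) and 5 in dwarf mice (Pold1, -0.82, Rrm2, -1.55, and Cdc45, -1.09, had the smallest p). Of 6 tested genes on a list for the meiotic spindle and cohesin, 2 fell in normal (Mos, the kinase that holds the egg in metaphase, -4.51, and Sgol2, a shugoshin also counted among the other mitosis genes, -1.23) and 3 in dwarf mice (Smc1b, a meiotic cohesin, -3.32, Mos, -2.69, and Sgol2, -0.95). Between genotypes, 3 of the 140 tested genes of these lists passed at 6 months and 2 at 22 months (2.14% and 1.43%), below the 4.57% and 3.81% of all tested genes. Anapc7 (0.63), Fzr1 (0.40) and Tfdp2 (0.77) were higher in dwarf mice at 6 months, and at 22 months Anapc15 (-1.15) was lower and Stag3, a meiotic cohesin subunit, higher (2.89). All of these are log2 values that passed in edgeR's test over all genes.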

How the data were processed

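Poly(A) RNA of whole ovaries was sequenced, 1 library for each of 20 mice, which the study's design text counts as separate animals. Flash freezing of the ovaries and Trizol extraction are given per the labels' protocols. Per the submitters' processing notes, TopHat2 2.0.10, TopHat, Bowtie2, HTSeq, DESeq and edgeR were used with mm10, with no role named for each; which annotation release and which strand setting the counting used is not given in the sources used here. Files as deposited hold raw counts of reads per gene, per the file's own whole numbers, with 5 summary rows (9.84 to 17.6% of a file's counts) that were left out of totals and tests. The gene annotation deposited with the series gave exon lengths and overlaps.

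Counts were tested in R 4.3.3 with edgeR 4.0.16 (quasi-likelihood test, robust estimates, TMM scaling) on a model of 4 group means over all 20 libraries; filterByExpr with a minimum count of 10 and a minimum total of 15 left 16099 genes, with a common dispersion of 0.165. P-values were adjusted over all tested genes (Benjamini-Hochberg), with calls at 0.05. Printed CPM are of raw library totals, without TMM. DESeq2 1.42.0 and limma 3.58.1 (voom with quality weights) were alternatives, as were other scalings and filters, only the groups compared, a replicate block and each library left out. Chosen after seeing the data were leaving out 3 libraries in doubt or the 3 libraries with title numbers 21 to 23, and summing dwarf 22-month replicates 1 and 4. These were the closest pair of libraries (chi-square per degree of freedom 2.46, the next pair 12.2) and differed by more than counting noise. They were kept as 2 samples, as labelled, although that difference does not show that they came from separate mice. Summed, they left 28 of the 36 genes lower with age in dwarf mice, where 5.01% of all tested genes fell. The test was also tried on simulated data with known changes.

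The 36 genes, the other lists and the markers were chosen with earlier results of these data known, so their directions are not independent support. Values in every library are given for a panel of 12 genes with at least 1 from each role and for the gene with the smallest p of each comparison; of each other list up to 3 genes with the smallest p are named. Limits that a count of 0 allows cover counting error only. The number of per-sample columns not used was 0.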

Additional observations from a re-analysis of the deposited data

Results flagged for a closer look

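Of 60 sets of 5 values tested for a library far from the others of its group (12 panel genes, Cdc20, Ndc80 and the summed level among them), 6 had one. For a single set chance alone gives about 1 in 20. The sets share libraries and the summed level holds the panel genes, so the count of 6 cannot be set against that rate. Normal 22-month replicate 3 accounted for 4 of the 6. Its Mki67 was at 137 CPM with the next library at 23.8, its Top2a at 37.4 CPM with the next at 17.0, its Ccnb1 at 6.72 CPM with the next at 3.47, and the sum over the 36 genes at 513 CPM with the next at 280.0. Cdc20 in normal 6-month replicate 2 was the lowest of its group, at 11.5 CPM with the next at 35.95. Birc5 in dwarf 22-month replicate 5 was the lowest of its group, at 6.11 CPM with the next at 9.14.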

How the results depend on the processing

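Of the 36 genes, 20 fell in normal mice in the reported fit and 35 by limma voom (10.9% of all tested genes). Only the groups compared gave 0 (0% of all tested genes, median log2 of the 36 at -1.46). Leaving out the 3 libraries in doubt gave 36 (12.9%), and leaving out title numbers 21 to 23 gave 5 (0.974%, median -1.43). Leaving out 1 library in turn gave 11 to 33, in fits where 2.05 to 10.0% of all tested genes fell. With the replicate number as a replicate block the count was 17 in normal and 28 in dwarf mice, where 3.6% and 8.08% of all tested genes fell. Of 30 same-number pairs, 10 correlated above 0.1 (-0.215 to 0.719). Pairs of unlike number were not set beside them, so these values cannot decide whether the numbers pair the mice. The reported fit did not take the numbers as pairs. In dwarf mice each alternative gave a count within 1.5 times of 30. At 22 months the genotype count went from 0 to 1 with only the groups compared and to 5 without the 3 libraries in doubt; at 6 months and for the interaction it was 0 of the 36 throughout. The sign of Mki67 in normal mice turned without normal 6-month replicate 5 (log2 0.021, edgeR adjusted p = 0.99; range with 1 library left out -1.71 to 0.021). The cause of these shifts was not tested. Depth limits genes with few counts: Bub1 and Ndc80 had libraries at 0 counts, and Ect2, Spc25, Nusap1 and Ttk at 1 or 2.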
